A study of Mus musculus with 8 samples.

Results

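The genes described here are 10 genes of choline and phosphatidylcholine metabolism, namely Gpcpd1, Chka, Chkb, Pcyt1a, Pcyt2, Chpt1, Cept1, Chdh, Etnk1 and Etnk2, out of 33212 genes in the count table of liver RNA. The members were chosen by symbol, and Gpcpd1 was picked because it was higher in the knockout, so its difference between genotypes is given as a description with no test. All 10 had enough counts to enter the comparison of 15291 genes. RNA-seq was made from the liver of 4 Nnmt KO mice and 4 control mice. All were male, the labels give their strain as C57BL/6, and all received the methionine- and choline-deficient (MCD) diet over 8 weeks, so that no group on another diet stands beside them. The Nnmt KO mice were Alb-Cre::Nnmt flox/flox and the control mice were Nnmt flox/flox, which the labels give as WT. Alb-Cre is driven by the albumin promoter, which is active in hepatocytes. The paper describes the knockout as specific to hepatocytes, and whether other liver cells kept the gene was not measured here. The age of the mice at the start of this diet is not given in the sources used here. The columns of counts carry the genotype and no mouse number, so letters a to d name the libraries of a genotype.

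Phosphatidylcholine is the main phospholipid of cell membranes and of the lipoproteins and bile that the liver secretes. In the CDP-choline branch of the Kennedy pathway, choline is phosphorylated by a choline kinase, joined to CTP by a cytidylyl-transferase and transferred to diacylglycerol, and a parallel branch makes phosphatidylethanolamine from ethanolamine. The liver can also make phosphatidylcholine by methylating phosphatidylethanolamine through PEMT, which uses S-adenosylmethionine, the methyl donor that NNMT also uses when it methylates nicotinamide. An MCD diet withholds choline and the precursor of this methyl donor at the same time, and it is widely used to produce steatohepatitis in mice.

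Apart from Gpcpd1, the genotypes differed most in Chka, which encodes choline kinase alpha, the enzyme of the first step from choline to phosphatidylcholine. Chka was lower in every Nnmt KO library than in every control library, at 61.0% of the control mean. Gpcpd1, whose product releases choline from glycerophosphocholine, was higher in every Nnmt KO library than in every control library. For the 8 members other than Gpcpd1 and Chka, the libraries of the genotypes overlapped. None of the 9 members other than Gpcpd1 passed an adjusted p of 0.05 by the quasi-likelihood test of edgeR, in which 0.32% of all tested genes passed. At an unadjusted p of 0.05, 1 of the 9 passed (Chka), beside 12.6% of all tested genes, and 1 of the 9 (Chka) had libraries that did not overlap, beside 8.16% of all tested genes. DESeq2 called 1 of the 9, again Chka, beside 3.56% of the genes to which it gave an adjusted p. Of these 9 members, 5 had a fold change above 0 on the log2 scale and 4 below 0 (7 and 2 with scaling by library size only, where Chkb and Cept1 turned), with a median of 0.03, and the median of all tested genes was 0.02.

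**Figure D1:**
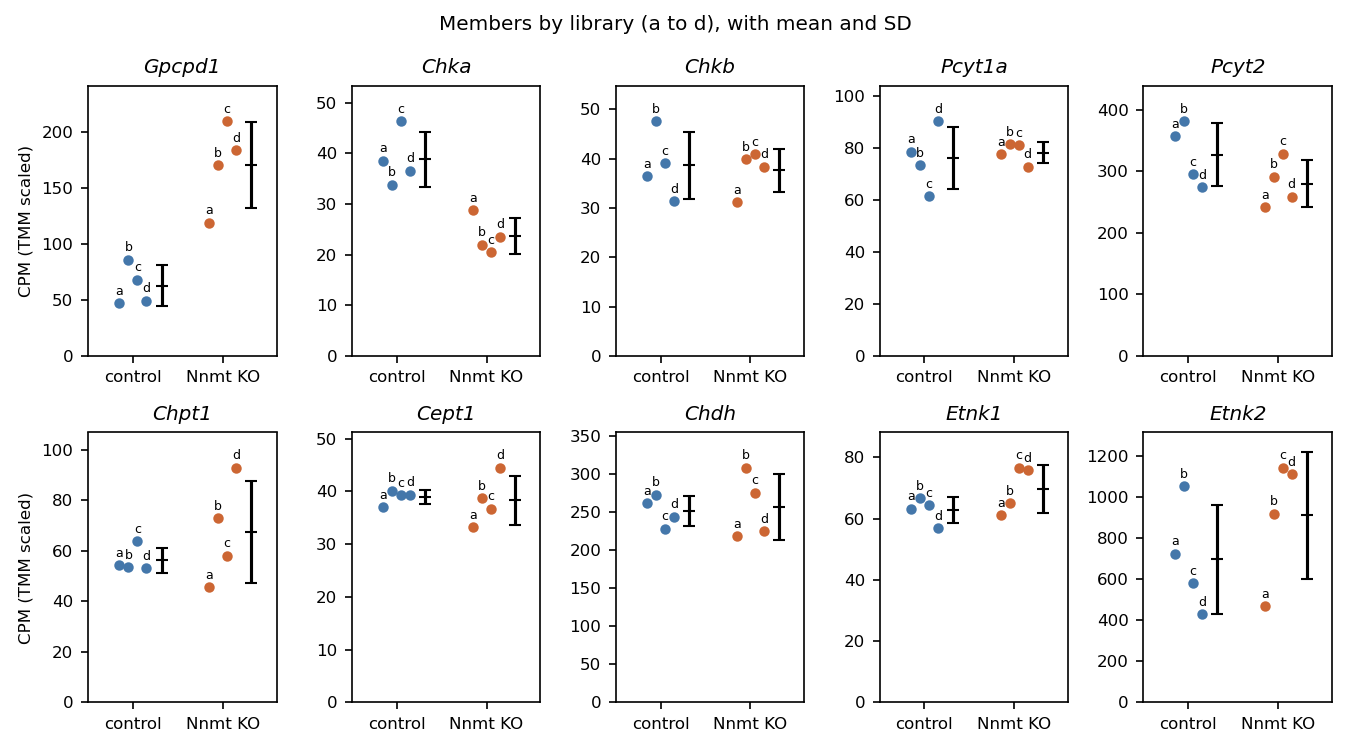
Level of each of the 10 genes in every library, in CPM (counts scaled to the library total after TMM correction), with a point for each of the 4 control and 4 Nnmt KO libraries and a line at the mean of the genotype. The points of the genotypes separate in Gpcpd1 and in Chka and overlap in the other 8 genes.

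Total counts per library were between 75020072 and 87934362. The targeted gene, Nnmt, was at 57.1 ± 23.1 CPM (n = 4, SD) in knockout livers and at 139 ± 60.5 CPM (n = 4, SD) in control mice, so that a sizeable part of its RNA remained in the knockout livers, with a log2 fold change (log2FC, knockout against control) of -1.28 (adjusted p = 0.123, edgeR). The liver identity of the samples was checked with 7 hepatocyte markers (Alb, Apoa1, Ttr, Tf, Fgb, Cps1 and Hnf4a), none of which was at 0, and their summed level ran from 77977 to 130512 CPM in Nnmt KO libraries and from 89953 to 128992 CPM in control libraries. Nnmt KO library a stood apart from the rest. It had a TMM factor (the scaling factor of edgeR) of 1.21, while the other Nnmt KO libraries had 0.952 to 0.977, and it also had the lowest sum of hepatocyte markers. Its 7 stellate and fibroblast markers summed to 715 CPM and its 6 cholangiocyte markers to 279 CPM, while the other libraries reached at most 462 and 178 CPM. Spp1 alone made 243 CPM of this cholangiocyte sum. Krt19 (6.39 CPM, against 6.41 CPM in control library c), Cftr and Des were not highest in this library, while the other markers of both lists were. Macrophage and endothelial markers overlapped between genotypes, at 473 to 668 CPM and 183 to 210 CPM in Nnmt KO libraries and at 354 to 675 CPM and 144 to 278 CPM in control libraries. The 6 lymphocyte markers had a low summed level that was higher in Nnmt KO libraries (4.56 to 5.43 CPM) than in control libraries (2.87 to 3.35 CPM). Of these, Cd8a and Cd79a were higher without overlap, while Cd3e (log2FC 0.08), Cd4, Ms4a1 and Nkg7 overlapped. The sums of the 5 neutrophil markers, of which Ly6g was at 0 throughout, overlapped at 4.66 to 14.3 CPM and 5.13 to 13.7 CPM. In RNA of whole liver, fewer cells of a type and less RNA per cell cannot be told apart, and the part that cell composition had in the values below was not tested unless stated.

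Gpcpd1 (ENSMUSG00000027346; chromosome 2, 132529082 to 132587729, minus strand, in GENCODE's annotation M21 of GRCm38) encodes a glycerophosphocholine phosphodiesterase, which splits glycerophosphocholine, a breakdown product of phosphatidylcholine, into choline and glycerol 3-phosphate. Its level was 119, 170, 210 and 184 CPM in Nnmt KO libraries a, b, c and d, and 47.2, 86.0, 68.2 and 49.4 CPM in control libraries a to d. The lowest Nnmt KO library was library a and the highest control library was library b, and the genotypes did not overlap, which was so for 3.34% of all tested genes with the higher values in Nnmt KO mice. The mean was 171 ± 38.1 CPM (n = 4, SD) in Nnmt KO mice, against 62.7 ± 18.2 CPM (n = 4, SD) in control mice, a difference of 1.44 on the log2 scale (standard error, SE, 0.22) or 2.72-fold. Over 12 alternatives of scaling, test, filter or libraries, this difference ran from 1.33 to 1.65 on the log2 scale, and without Nnmt KO library a it was 1.58. As the gene was picked for this difference, no p-value is given for it, and the lack of overlap, with its share, is not a test of it.

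The 5 genes whose profile over the 8 libraries was most like that of Gpcpd1 were Rasgef1b, Fam222a, Gm26809, Slc22a5 and Tmtc2, by the root mean square difference of log2 CPM after each gene was centred on its own mean. This difference was 0.25 for Rasgef1b, 0.27 for both Fam222a and Gm26809, and 0.28 for both Slc22a5 and Tmtc2. Slc22a5 encodes the carnitine carrier OCTN2, and its mean level was 60.1 CPM in control mice and 117 CPM in Nnmt KO mice. As Gpcpd1 was picked for its rise, genes with a like profile rise by selection, and their rise is not a separate result. None of the 5 belongs to the choline lists used here.

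Chka (ENSMUSG00000024843; chromosome 19, 3851773 to 3894369, plus strand) encodes choline kinase alpha, which turns choline into phosphocholine. Its level was 28.7, 22.0, 20.5 and 23.5 CPM in Nnmt KO libraries a, b, c and d, and 38.5, 33.8, 46.4 and 36.6 CPM in control libraries a to d. The highest Nnmt KO library was library a, and it was still below the lowest control library, library b. The mean was 23.7 ± 3.59 CPM (n = 4, SD) in Nnmt KO mice, against 38.8 ± 5.39 CPM (n = 4, SD) in control mice. The log2FC was -0.71 (SE 0.14, 95% interval -1.01 to -0.41, unadjusted p = 0.00026, adjusted p = 0.0642) by the quasi-likelihood test of edgeR, adjusted by the Benjamini-Hochberg method. At an unadjusted p under 0.05, 7.13% of all tested genes were lower in Nnmt KO mice, and 4.81% were lower with libraries that did not overlap. The adjusted p ran from 0.000601 with DESeq2's test to 0.269 with scaling by library size only, and the log2FC stayed between -0.82 and -0.62 over the 12 alternatives. Without Nnmt KO library a, the adjusted p was 0.0195. Within each genotype, the library with the lowest sum of hepatocyte markers (Nnmt KO library a and control library c) had the highest Chka, and the part of this in the difference was not tested. The antisense gene Gm16066, which overlaps Chka, had 0 counts in every library.

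As Chka was the member other than Gpcpd1 with the largest difference, the 250 bases before its annotated start are shown from the RefSeq promoter table of GRCm38.p6 (chr19:3851523-3851772, plus strand). Capitals mark CCAAT and the GC box GGGCGG on either strand.
Chka: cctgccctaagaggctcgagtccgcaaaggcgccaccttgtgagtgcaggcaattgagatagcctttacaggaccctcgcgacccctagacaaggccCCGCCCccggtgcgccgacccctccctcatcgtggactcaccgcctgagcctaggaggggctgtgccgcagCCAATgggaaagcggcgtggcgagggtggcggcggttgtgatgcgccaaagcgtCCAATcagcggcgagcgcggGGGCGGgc
The CCAAT matches lie at -82 to -78 and at -28 to -24 from the start, and the GC box matches at -153 to -148 and at -8 to -3. Across the 32851 promoter windows of the table, searched over these 250 bases on both strands, CCAAT was found in 33.8% and GGGCGG in 32.7%. The table held 8 of the 10 members, all but Gpcpd1 and Pcyt2, in 14 windows. GGGCGG was found in a window of each of these 8 members and CCAAT in windows of Chka, Chkb and Chpt1. These are counts by gene, while the shares of all windows are by window, so the 2 are not directly comparable. The sterol response letters TCACNCCAC were found in a window of Pcyt1a (1.05% of all windows). The E-box CACGTG (6.02% of all windows), the cyclic AMP response letters TGACGTCA (1.55%) and the amino acid response letters TGATGCAA (0.791%) were found in no window of the 8 members. These are matches of letters and were not tested as binding sites.

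Chkb (ENSMUSG00000022617; chromosome 15, 89426360 to 89429908, minus strand) encodes choline kinase beta, the other choline kinase. Its level was 31.2, 39.9, 41.0 and 38.4 CPM in Nnmt KO libraries a, b, c and d, and 36.5, 47.6, 39.0 and 31.4 CPM in control libraries a to d. The genotypes overlapped, with the lowest value in Nnmt KO library a and the highest in control library b. Chkb had a log2FC of -0.04 (SE 0.14, 95% interval -0.34 to 0.27, adjusted p = 0.933), and its sign turned in 3 of the 12 alternatives (scaling by library size only, without Nnmt KO library a and without control library b). The annotation places Gm44502 on the same strand over this gene, but the count table has no row for Gm44502.

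Etnk1 and Etnk2 encode the ethanolamine kinases, which start the phosphatidylethanolamine branch. Etnk1 (ENSMUSG00000030275; chromosome 6, 143167221 to 143232307, plus strand) was at 61.2, 64.9, 76.6 and 75.7 CPM in Nnmt KO libraries a, b, c and d, and at 63.2, 66.7, 64.4 and 56.8 CPM in control libraries a to d. Its Nnmt KO libraries c and d were above all control libraries and libraries a and b were within them. Its log2FC was 0.15 (SE 0.11, 95% interval -0.09 to 0.39, adjusted p = 0.615). Etnk2 (ENSMUSG00000070644; chromosome 1, 133363572 to 133380336, plus strand) was at 469, 917, 1141 and 1109 CPM in Nnmt KO libraries a, b, c and d, and at 723, 1051, 579 and 429 CPM in control libraries a to d. It varied most among the members within both genotypes, with a coefficient of variation of 38.2% in control mice and 34.1% in Nnmt KO mice. Its values in Nnmt KO library a were close to those of the lowest control library, and its values in control library b were close to those of the highest Nnmt KO libraries. The log2FC of Etnk2 was 0.39 (SE 0.31, 95% interval -0.29 to 1.06, unadjusted p = 0.234, adjusted p = 0.642). It was 0.60 without Nnmt KO library a (unadjusted p = 0.0327, adjusted p = 0.321) and 0.67 without control library b (unadjusted p = 0.0445, adjusted p = 0.481), but 0.26 without Nnmt KO library c and 0.21 without control library d (unadjusted p = 0.502).

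**Figure D2:**
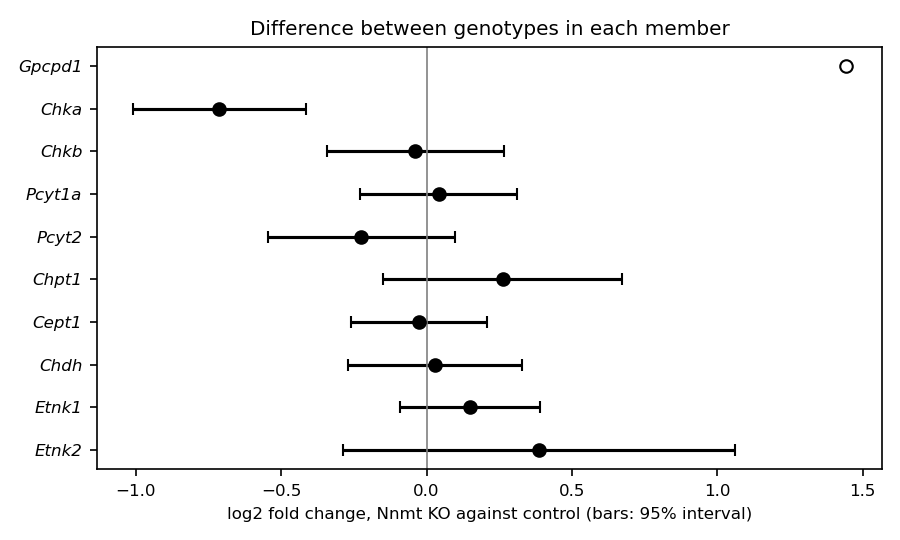
Log2FC of each of the 10 genes in Nnmt KO against control livers (4 libraries each), with bars for the 95% interval of edgeR's quasi-likelihood test. The interval of Chka, from -1.01 to -0.41, lies below 0 and those of the other 8 tested genes include 0, while Gpcpd1 (open point, 1.44) was picked for its difference and carries no bar.

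The cytidylyl-transferases make CDP-choline and CDP-ethanolamine. Pcyt1a (ENSMUSG00000005615; chromosome 16, 32430921 to 32475070, plus strand) encodes the alpha form of the choline enzyme, the rate-limiting step of the CDP-choline branch. It was at 77.6, 81.3, 81.0 and 72.8 CPM in Nnmt KO libraries a, b, c and d, and at 78.6, 73.5, 61.5 and 90.3 CPM in control libraries a to d. The Nnmt KO libraries all lay within the range of the control libraries, and the log2FC was 0.04 (SE 0.12, 95% interval -0.23 to 0.31, adjusted p = 0.915), with its sign turned in 1 of the 12 alternatives (without control library c). Pcyt2 (ENSMUSG00000025137; chromosome 11, 120610087 to 120617936, minus strand) encodes the ethanolamine enzyme. It was at 241, 291, 329 and 259 CPM in Nnmt KO libraries a, b, c and d, and at 357, 381, 296 and 274 CPM in control libraries a to d. Control libraries a and b were above all Nnmt KO libraries and the rest overlapped. The log2FC of Pcyt2 was -0.22 (SE 0.15, 95% interval -0.55 to 0.10, adjusted p = 0.561), and it ran from -0.31 to -0.13 with a library left out, the latter without control library b.

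The last step joins the activated head group to diacylglycerol. Chpt1 (ENSMUSG00000060002; chromosome 10, 88452745 to 88504073, minus strand) encodes cholinephosphotransferase, and Cept1 (ENSMUSG00000040774; chromosome 3, 106502260 to 106547802, minus strand) encodes an enzyme that accepts both CDP-choline and CDP-ethanolamine. Chpt1 was at 45.7, 72.8, 58.0 and 92.8 CPM in Nnmt KO libraries a, b, c and d, and at 54.3, 53.5, 63.7 and 53.1 CPM in control libraries a to d. The Nnmt KO libraries spread more widely than the control libraries, with library a below all control libraries and libraries b and d above them. The log2FC was 0.26 (SE 0.19, 95% interval -0.15 to 0.67, adjusted p = 0.601), and a single library moved it from 0.07 without Nnmt KO library d (unadjusted p = 0.675) to 0.41 without Nnmt KO library a (unadjusted p = 0.0214, adjusted p = 0.271). Cept1 was at 33.2, 38.7, 36.7 and 44.5 CPM in Nnmt KO libraries a, b, c and d, and at 37.1, 40.2, 39.3 and 39.4 CPM in control libraries a to d. Its highest library was 1.34 times its lowest, the smallest spread among the members. The log2FC of Cept1 was -0.03 (SE 0.11, 95% interval -0.26 to 0.21, adjusted p = 0.941), and its sign turned in 2 of the 12 alternatives (scaling by library size only and without Nnmt KO library a). Dennd2d and Dram2 overlap Cept1 on the opposite strand, and whether the counting used strand is not given in the sources used here.

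Chdh (ENSMUSG00000015970; chromosome 14, 30009023 to 30040527, plus strand) encodes choline dehydrogenase, the mitochondrial enzyme that takes choline away from phosphatidylcholine synthesis by oxidising it towards betaine. It was at 218, 309, 276 and 225 CPM in Nnmt KO libraries a, b, c and d, and at 262, 273, 229 and 244 CPM in control libraries a to d. Both the lowest and the highest values were in Nnmt KO libraries. The log2FC was 0.03 (SE 0.14, 95% interval -0.27 to 0.33, adjusted p = 0.947), and its sign turned in 3 of the 12 alternatives (without Nnmt KO library b or c and without control library c).

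Levels of different genes were compared per length of gene, as RPKM (here the CPM divided by the merged exon length of the gene in kilobases). In control mice, Etnk2 had the highest level of the members, at 152 RPKM, followed by Pcyt2 at 75.3 RPKM and Chdh at 40.6 RPKM. The middle of the order was held by Chkb at 12.6 RPKM, Cept1 at 12.5 RPKM, Pcyt1a at 10.2 RPKM, Gpcpd1 at 8.60 RPKM and Chpt1 at 6.75 RPKM. Etnk1, at 4.44 RPKM, and Chka, at 3.23 RPKM, had the lowest levels. Each neighbour in this order was above the next in all 4 control libraries, except that Chkb was above Cept1 in 3 of 4, Pcyt1a above Gpcpd1 in 2 of 4 and Gpcpd1 above Chpt1 in 3 of 4. In Nnmt KO mice, Gpcpd1 was at 23.4 ± 5.23 RPKM (n = 4, SD), above Pcyt1a in all 4 libraries. With the length of the longest transcript in place of merged exons, Etnk2, Pcyt2 and Chdh stayed the highest and Etnk1 and Chka the lowest in control mice, while the order between them changed.

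**Figure D3:**
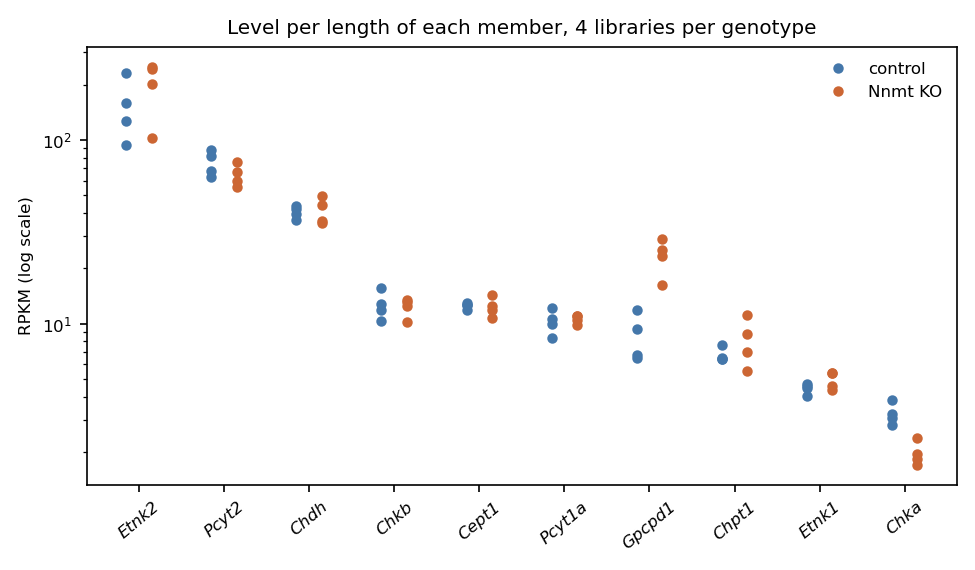
Level of each gene per length in control and Nnmt KO livers, in RPKM on a log axis, with a point for each of the 4 libraries of a genotype. In control livers the mean levels run from 3.23 RPKM in Chka to 152 RPKM in Etnk2, and the mean of Gpcpd1 moves from 8.60 to 23.4 RPKM in Nnmt KO livers.

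Each step of the Kennedy pathway has a pair of related enzymes among the members. The log2 ratio of their counts within a library does not depend on the scaling between libraries. These counts are not divided by length, so a ratio does not tell which enzyme of a pair has the higher level. Only its difference between genotypes is read here. The Chka to Chkb ratio was -0.12, -0.86, -0.999 and -0.70 in Nnmt KO libraries a, b, c and d, and 0.08, -0.49, 0.25 and 0.22 in control libraries a to d. Nnmt KO library a was above control library b, and the other Nnmt KO libraries were below all control libraries. The difference in means was -0.68 on the log2 scale (two-sided exact permutation test, p = 0.0571, adjusted p over the 4 pairs = 0.229), and 4 libraries against 4 cannot give a p below 0.0286. The Pcyt1a to Pcyt2 ratio was -2.11 ± 0.35 (n = 4, SD) in control and -1.83 ± 0.16 (n = 4, SD) in Nnmt KO libraries (exact permutation p = 0.2, adjusted p = 0.267). The Chpt1 to Cept1 ratio was 0.52 ± 0.13 in control and 0.77 ± 0.27 in Nnmt KO libraries (exact permutation p = 0.171, adjusted p = 0.267). The Etnk1 to Etnk2 ratio was -3.39 ± 0.46 in control and -3.63 ± 0.46 in Nnmt KO libraries (exact permutation p = 0.514, adjusted p = 0.514). With a library left out, the difference in this ratio ran from -0.47 without Nnmt KO library a to -0.08 without control library d, that of Pcyt1a to Pcyt2 from 0.19 without control library b to 0.44 without control library d, and that of Chpt1 to Cept1 from 0.15 without Nnmt KO library d to 0.35 without Nnmt KO library a. In all 4 pairs the libraries of the genotypes overlapped, and none of the differences passed an adjusted p of 0.05. Given the smallest possible p of 0.0286, a single pair could not have passed after adjustment over the 4 pairs, even without overlap. The lack of a pass therefore does not show that the ratios were alike.

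**Figure D4:**
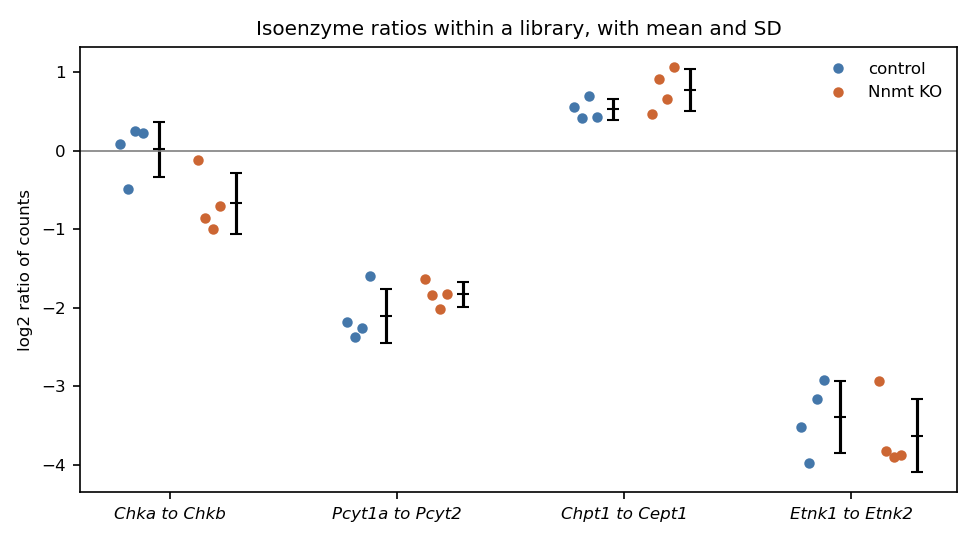
Log2 ratio of the counts of related enzymes in each library, not divided by length, for 4 pairs, with a point per library and a line at the mean of the genotype. For Chka to Chkb, 3 of the 4 Nnmt KO libraries lie below all control libraries and Nnmt KO library a, at -0.12, lies among them.

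Beside the members, 70 genes in 9 lists of the wider pathway were examined, of which 65 had enough counts to be tested. None passed an adjusted p of 0.05 by the edgeR test, 12 (18.5%, beside 12.6% of all tested genes) had an unadjusted p under 0.05, with 6 higher and 6 lower in Nnmt KO mice, and DESeq2 called 5 (Slc44a3, Etnppl, Lpin2, Lpin3 and Smpd1), beside 3.56% of all genes with an adjusted p from DESeq2. The libraries of 7 (10.8%, beside 8.16% of all tested genes) did not overlap. The median log2FC of the 65 genes was 0.07, and that of all tested genes was 0.02. Leaving out Nnmt KO library a moved the count past an adjusted p of 0.05 from 0 to 3, and these were Etnppl, Lpin3 and Smpd3, while the calls among all tested genes went from 49 to 149 (0.963%).

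The carriers of choline and ethanolamine had 3 of 7 tested genes higher at an unadjusted p under 0.05 (beside 5.45% of all tested genes) and none lower, with a median log2FC of 0.33. All 3 belong to the choline transporter-like family Slc44. Slc44a3 was at 4.86 ± 0.93 CPM (n = 4, SD) in control livers and 7.67 ± 1.53 CPM (n = 4, SD) in Nnmt KO mice, without overlap, with a log2FC of 0.66 (SE 0.19, adjusted p = 0.180). Slc44a2 had a log2FC of 0.46 (SE 0.19, adjusted p = 0.352) and Slc44a4, at a low level of 0.62 CPM in control mice, one of 1.02 (SE 0.38, adjusted p = 0.294). The 3 genes had their highest level in Nnmt KO library a, which had the highest sums of stellate and cholangiocyte markers. The part of cell composition in the difference was not tested. Without this library, Slc44a3 was at 0.54 (unadjusted p = 0.0168), Slc44a2 at 0.26 (unadjusted p = 0.129) and Slc44a4 at 0.85 (unadjusted p = 0.0615) on the log2 scale.

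The 8 other head group enzymes had a median log2FC of 0.04. At an unadjusted p under 0.05, 1 was higher (beside 5.45% of all tested genes) and none lower. This was Etnppl, which encodes the phospholyase that breaks down phosphoethanolamine and so removes it from the ethanolamine branch. It was at 51.0 ± 16.7 CPM (n = 4, SD) in control livers and 104 ± 43.2 CPM (n = 4, SD) in Nnmt KO mice (log2FC 1.02, SE 0.33, adjusted p = 0.216), and without Nnmt KO library a its log2FC was 1.28 (adjusted p = 0.0302). Pemt, the methyltransferase of the route from phosphatidylethanolamine, had the highest level per length of this list, at 272 ± 70.7 RPKM (n = 4, SD) in control and 240 ± 54.9 RPKM (n = 4, SD) in Nnmt KO mice (log2FC -0.18, adjusted p = 0.768).

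Diacylglycerol, to which the head groups are transferred, is supplied by 7 of the listed genes. At an unadjusted p under 0.05, 2 were higher (beside 5.45% of all tested genes) and 2 lower (beside 7.13%). These included all 3 lipins, which turn phosphatidic acid into diacylglycerol, with differences in both directions. Lpin2 was at 391 ± 42.6 CPM (n = 4, SD) in control livers and 551 ± 78.2 CPM (n = 4, SD) in Nnmt KO mice, without overlap (log2FC 0.49, SE 0.14, adjusted p = 0.161). Lpin1 had a log2FC of 0.87 (SE 0.34, adjusted p = 0.317), from 292 ± 141 CPM to 534 ± 202 CPM. Lpin3 was lower, at 28.8 ± 5.90 CPM (n = 4, SD) in control livers and 15.7 ± 3.68 CPM (n = 4, SD) in Nnmt KO mice, without overlap (log2FC -0.87, SE 0.18, unadjusted p = 0.000588, adjusted p = 0.0726), and its adjusted p was 0.0195 without Nnmt KO library a and 0.00186 with DESeq2. Agpat2, an acyltransferase that makes phosphatidic acid, was also lower without overlap, at 326 ± 32.6 CPM and 241 ± 45.3 CPM (log2FC -0.44, SE 0.15, adjusted p = 0.257). It had the highest level per length of this list, at 153 RPKM in control mice.

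Sphingomyelin is a lipid that takes its head group from phosphatidylcholine. The 7 genes of its enzymes had a median log2FC of -0.16. At an unadjusted p under 0.05, none was higher and 2 were lower (beside 7.13% of all tested genes). Smpd1, the acid sphingomyelinase of lysosomes, was at 110 ± 11.8 CPM (n = 4, SD) in control livers and 77.9 ± 9.93 CPM (n = 4, SD) in Nnmt KO mice, without overlap (log2FC -0.50, SE 0.12, adjusted p = 0.114). Smpd3, the neutral sphingomyelinase 2, had a log2FC of -0.64 (SE 0.19, adjusted p = 0.174). Of 7 carriers of phosphatidylcholine, 1 was lower at an unadjusted p under 0.05 (beside 7.13% of all tested genes) and none higher. This was Stard10, a transfer protein of the START family (1147 ± 229 CPM in control livers and 814 ± 159 CPM in Nnmt KO mice, log2FC -0.49, adjusted p = 0.308). Its lowest value was in Nnmt KO library a, at 576 CPM. Without this library its log2FC was -0.36 (unadjusted p = 0.0456, adjusted p = 0.365, edgeR). Smpd1 and Stard10 lie on chromosome 7 beyond 75 Mb, a boundary for which no rule is given here. The median log2FC of the 554 tested genes in this region was -0.28, beside 0.02 for all tested genes, and no other region is given for comparison. The part of this region in the differences of Smpd1 and Stard10 was not tested. Of the other wider list genes there, Gde1 (0.07), Gdpd3 (0.26) and Gdpd5 (0.31) had a log2FC above 0 and Ptdss2 (-0.22) below. None of the 10 members lies on chromosome 7.

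The 11 tested phospholipases and remodelling acyltransferases had a median log2FC of 0.21. At an unadjusted p under 0.05, 1 was lower (beside 7.13% of all tested genes) and none higher. This was Pla2g12b, a secreted phospholipase A2 family member (59.9 ± 5.57 CPM in control livers and 49.6 ± 3.18 CPM in Nnmt KO mice, without overlap, log2FC -0.27, adjusted p = 0.300). Lpcat3, which returns acyl chains to lysophosphatidylcholine, had the highest level per length of that list, at 59.2 RPKM in control and 55.8 RPKM in Nnmt KO mice. None of the 10 glycerophosphodiesterases and lysophospholipases, the group of enzymes around Gpcpd1, had an unadjusted p under 0.05 by the edgeR test, DESeq2 called none, and the median was 0.07. Gde1, the one of highest level per length, was at 56.1 RPKM in control and 58.8 RPKM in Nnmt KO mice. None of the 6 enzymes of choline oxidation and betaine use beside Chdh had an unadjusted p under 0.05 by the edgeR test and DESeq2 called none, and the 6 log2FCs had a median of -0.09, with 0 above 0 and 6 below. This direction rested on Nnmt KO library a, without which 4 were above 0 and 2 below, with a median of 0.08. Gnmt, the glycine methyltransferase that consumes S-adenosylmethionine, was at 1176 ± 400 RPKM (n = 4, SD) in control and 754 ± 292 RPKM (n = 4, SD) in Nnmt KO mice (log2FC -0.64, adjusted p = 0.450), and without Nnmt KO library a its log2FC was -0.39. Without Nnmt KO library a, the medians of the phospholipase and the glycerophosphodiesterase lists were 0.03 and -0.03. Of the acetylcholine enzymes, 2 of 3 were tested and neither passed an unadjusted p of 0.05 by the edgeR test or was called by DESeq2. Bche, the butyrylcholinesterase secreted by the liver, was at 8.68 RPKM in control and 11.3 RPKM in Nnmt KO mice. Ache, the acetylcholinesterase, is named after its values were seen, as its libraries did not overlap, and it was at a low 0.64 ± 0.16 CPM (n = 4, SD) in control livers and 0.37 ± 0.13 CPM (n = 4, SD) in Nnmt KO mice (log2FC -0.79, SE 0.41, unadjusted p = 0.0761, adjusted p = 0.446).

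**Figure D5:**
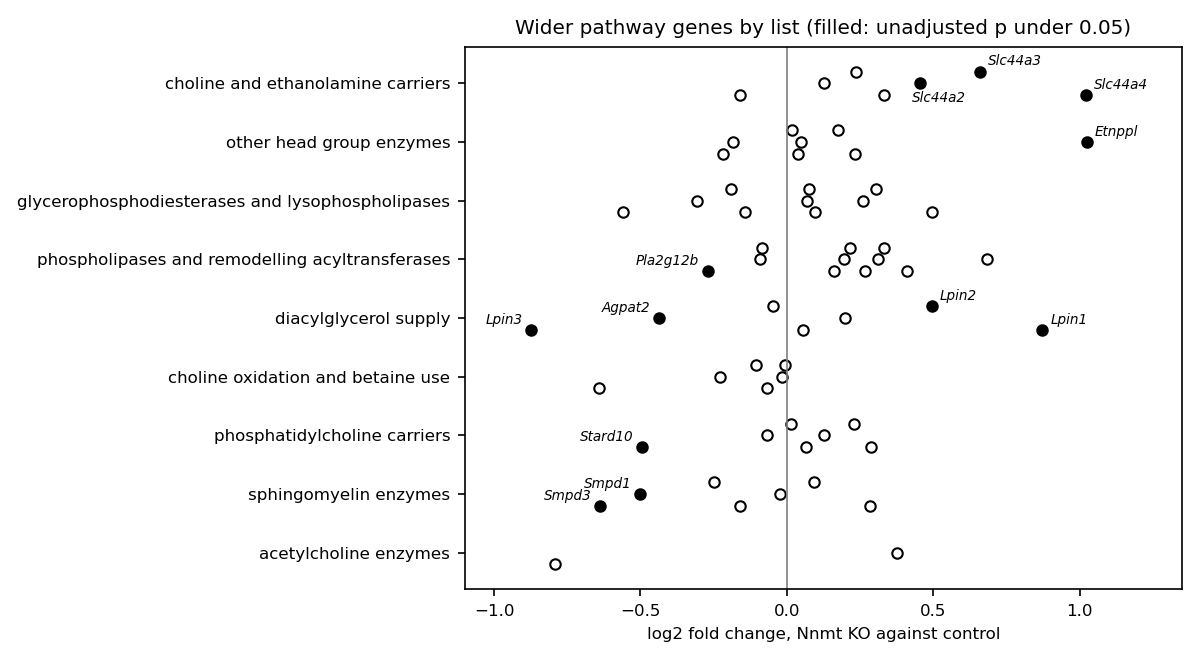
Log2FC in Nnmt KO against control livers (4 libraries each) of the 65 tested genes of the wider pathway, by list, with filled points for an unadjusted p under 0.05 by the edgeR test. The 12 filled points are split into 6 on each side of 0, and the lipins lie on both sides.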

How the data were processed

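Liver RNA-seq libraries of 4 Nnmt KO and 4 control mice were used. The authors deposited raw counts, 1 whole number per gene and library. Per the submitters' processing notes, HISAT2, StringTie and the build mm10 were used, and the annotation and the use of strand are not given in the sources used here. In every library, 4 counts were more frequent than 2, 3 or 6, so a count need not be a single read, and no interval from counting was computed. The study's methods name a KAPA library kit and the labels an NEBNext kit. All 8 columns of counts were mapped to a genotype by name, and none was left out. Replicates are separate samples per the labels, and p-values set the difference between genotypes against the spread between these samples.

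Genes were kept by filterByExpr (minimum count 10) and compared by the quasi-likelihood test of edgeR 4.0.16 in R 4.3.3 with TMM scaling and Benjamini-Hochberg adjustment over 15291 genes. The study's methods name DESeq2 for its own comparison. DESeq2 1.42.0 was run here as an alternative. Values in CPM are TMM-scaled, and log2 CPM used a prior count of 2. Isoenzyme ratios were compared by two-sided exact permutation tests (scipy 1.17.1). Positions come from GENCODE M21 of GRCm38, and promoters from RefSeq. Scripts were tested on simulated data. Other alternatives were the size factors of DESeq2, library size alone as the scale, no filter, each library left out in turn, a prior count of 0.5 for the ratios and the longest transcript for lengths.

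The members and lists were chosen with earlier results of these data known. Named genes are the members, Nnmt, up to 3 genes per wider list and direction with the smallest unadjusted p under 0.05, the gene of highest level per length of each list, and the 5 genes most like Gpcpd1. Of the genes so named, 1 is not reported here. Of the listed genes, 5 were found under an older symbol by identifier.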

Additional observations from a re-analysis of the deposited data

Results flagged for a closer look

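In groups of 4 libraries, the highest or lowest library was compared with the rest by Dixon's criterion, and 4 of 56 groups passed its 95% critical value, where chance alone gives about 2.8 (1 in 20 groups). Nnmt KO library a had a TMM factor of 1.21, far above the other libraries of its genotype, at 0.952 to 0.977. The log2 ratio of Etnk1 to Etnk2 in Nnmt KO library a was -2.94, above the other Nnmt KO libraries, at -3.90 to -3.82. Stard10 in Nnmt KO library a was at 576 CPM, below the other Nnmt KO libraries, at 888 to 903 CPM. Chpt1 in control library c was at 63.7 CPM, above the other control libraries, at 53.1 to 54.3 CPM.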

How the results depend on the processing

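The signs of Chka, Pcyt2, Chpt1, Etnk1 and Etnk2 held in all 12 alternatives. Those of Chkb, Pcyt1a, Cept1 and Chdh, near 0 and past no threshold, did not. Gpcpd1 kept its sign too, but it was picked for its rise in these libraries. As the libraries of Gpcpd1 and of Chka did not overlap between genotypes, leaving out a library could hardly turn their signs. Nnmt had a log2 fold change of -1.28 with DESeq2 too and was then past an adjusted p of 0.05. Members called at an adjusted p under 0.05 numbered 0, 1 with DESeq2, and 0 to 1 with a library left out (1, Chka, without Nnmt KO library a). Members at an unadjusted p under 0.05 numbered 1, and 1 to 3 with a library left out (Chka, Chpt1 and Etnk2 without Nnmt KO library a, Chka and Etnk2 without control library b). Genes of the wider lists called numbered 0, 5 with DESeq2, and 0 to 3 with a library left out (3 without Nnmt KO library a). Of all tested genes, 49 were called, against 30 with DESeq2's size factors, 22 with scaling by library size only, 513 with DESeq2, 8 without a filter, and 6 to 149 with a library left out (149 without Nnmt KO library a). Of genes at an unadjusted p under 0.05, 43.3% were higher in Nnmt KO mice, and 56.9% with scaling by library size only. The cause of these shifts was not tested. No paired analysis was possible because the columns carry no replicate number. With 4 mice per genotype, spread between mice limits what can be called.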
